A study of Mus musculus with 2 samples.

Results

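Mir216b, Mir216a and Mir217 are 3 microRNA (miRNA) genes of 1 cluster on mouse chromosome 11. They were counted by miRNA sequencing in tissue labelled neural tube, the embryonic structure that gives rise to brain and spinal cord. The tissue came from B6NCrl mouse embryos at 15.5 days. The samples form 1 group of 2 libraries, numbered by the labels as biological replicates 1 and 2. Library 1 came from a pool of 78 embryos and library 2 from a pool of 62, with males and females mixed and no treatment or altered genotype named. The 3 genes were picked by gene symbol out of 1973 miRNA genes in the tables. They were selected on values already known, namely their counts and the ratio of Mir217 between the libraries. Their levels and ratios are therefore given as a description, with no test.

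A miRNA gene is transcribed into a precursor that folds into a hairpin. From each arm of the hairpin (5p and 3p) a mature miRNA can be cut, whose bases 2 to 8, the seed, pair with messenger RNAs to repress them. miR-216a, miR-216b and miR-217 are best known from the exocrine pancreas, where they are among the characteristic miRNAs of acinar cells. miR-217 is known to target Sirt1, which encodes a deacetylase. Neural tube is not the tissue these miRNAs are usually described in.

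The mature sequences are shown because they tell the 3 members apart. They are from RefSeq (GRCm38.p6, where all 3 members were matched by symbol), written 5′ to 3′ with the seed in capitals.
mmu-miR-216b-5p: aAAUCUCUgcaggcaaauguga
mmu-miR-216a-5p: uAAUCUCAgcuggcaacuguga
mmu-miR-217-5p: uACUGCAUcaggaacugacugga
mmu-miR-216b-3p: aCACUUACcuguagagauucuu
mmu-miR-216a-3p: cACAGUGGucucugggauuaug
mmu-miR-217-3p: cAUCAGUUccuaaugcauugccu

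The 5p arms of miR-216a and miR-216b are near copies, with 18 of 22 bases identical. Counted from the 5′ end, with the base of miR-216a first, they differ by U1A, A8U, U11A and C17A. The seeds thus share 6 of 7 bases and part at the last. Their 3p arms have only 7 of 22 bases in common. miR-217-5p resembles neither, with 6 of its first 22 bases identical to each of them. None of the 6 seeds occurs at bases 2 to 8 of any other of the 1738 mature mouse sequences in the RefSeq table, which hold 1398 different seeds.

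The precursors show where the counted reads come from, with the mature arms in capitals.
Mir216b precursor: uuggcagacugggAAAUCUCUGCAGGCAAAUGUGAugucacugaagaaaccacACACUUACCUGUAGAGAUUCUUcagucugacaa
Mir216a precursor: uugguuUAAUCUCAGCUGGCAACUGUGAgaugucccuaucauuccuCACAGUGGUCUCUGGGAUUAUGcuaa
Mir217 precursor: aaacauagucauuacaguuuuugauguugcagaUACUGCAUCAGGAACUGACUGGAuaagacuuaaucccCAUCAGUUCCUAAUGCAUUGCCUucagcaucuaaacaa

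Reads of both arms are summed in each gene's count, so the arms could not be compared. None of the 3 precursors shares a stretch of 20 bases on its own strand with any of 2201 other annotated miRNA precursors. The longest stretch in common was 12 bases for Mir216b and Mir216a and 11 bases for Mir217. None of the mature sequences occurs in another precursor. This bears on the counts, since no gene received the reads that aligned to several places, which were 29.4% of library 1 and 29.7% of library 2.

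On mm10, Mir216b (ENSMUSG00000076318.1) lies on the plus strand of chromosome 11 at 28746191 to 28746276. Mir216a (ENSMUSG00000065539.1) follows after 10.7 kb at 28757012 to 28757083, and Mir217 (ENSMUSG00000065415.1) after a further 6.64 kb at 28763728 to 28763835. The cluster spans 17.6 kb. In GENCODE M21, Mir216a and Mir217 lie in introns of the long non-coding RNA gene Gm12082, which has 1 transcript of 4 exons, and Mir216b lies upstream of it, inside no other gene on its strand. RefSeq draws the non-coding genes otherwise. There Mir216b lies within Mir217hg, at 28730633 to 28751781, while Mir216a and Mir217 lie within the span of Gm40818, at 28754078 to 28772168. The nearest protein-coding gene downstream, Efemp1, starts 89.4 kb beyond Mir217.

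A further miRNA gene, Mir216c, is annotated on the minus strand inside Mir216b, its 69 bases being the reverse complement of part of that precursor. It was not analysed here. Its reads would fall on the other strand of Mir216b, where 0 counts were found in both libraries. By a 1-sided 95% Poisson bound, a count of 0 allows up to about 3 counts, or 0.709 CPM in library 1 and 0.497 CPM in library 2. The Poisson intervals given below are 2-sided. Mir216a and Mir217 had 0 counts on the other strand as well, whereas 42 of the 1973 genes in library 1 and 43 in library 2 had at least 1 there.

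All 3 members were detected, that is, had at least 10 counts on the sense strand in each library, as did 363 of the 1973 genes. Library 1 held 4228685 sense-strand counts in miRNA genes and library 2 held 6039889, and CPM is a gene's counts per 1000000 of these. Mir217 was the most abundant member. It had 517 counts in library 1 and 991 in library 2, which is 122 CPM (95% Poisson interval 112 to 133) and 164 CPM (154 to 175). The mean was 143 ± 29.6 CPM (SD, n = 2). Library 2 was the higher one and the intervals did not overlap. Intervals cover counting error only, not variation between pools. Reads copied by PCR are not independent molecules, so the intervals may be too narrow even for counting error.

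Mir216b came next, with 164 counts in library 1 and 311 in library 2. These are 38.8 CPM (33.1 to 45.2) and 51.5 CPM (45.9 to 57.5), with a mean of 45.1 ± 8.99 CPM (SD, n = 2). Here too library 2 was higher with intervals apart, though by a narrow margin. Mir216a was lowest, with 118 and 208 counts, or 27.9 CPM (23.1 to 33.4) in library 1 and 34.4 CPM (29.9 to 39.4) in library 2, a mean of 31.2 ± 4.62 CPM (SD, n = 2). Its intervals overlapped between the libraries. Among the 363 detected genes Mir217 ranked 180 by mean level, Mir216b 244 and Mir216a 259, so that Mir217 stood in the middle and both Mir216 genes in the lower part. Together the members took 0.0219% ± 0.00432 of the counts (SD, n = 2).

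**Figure D1:**
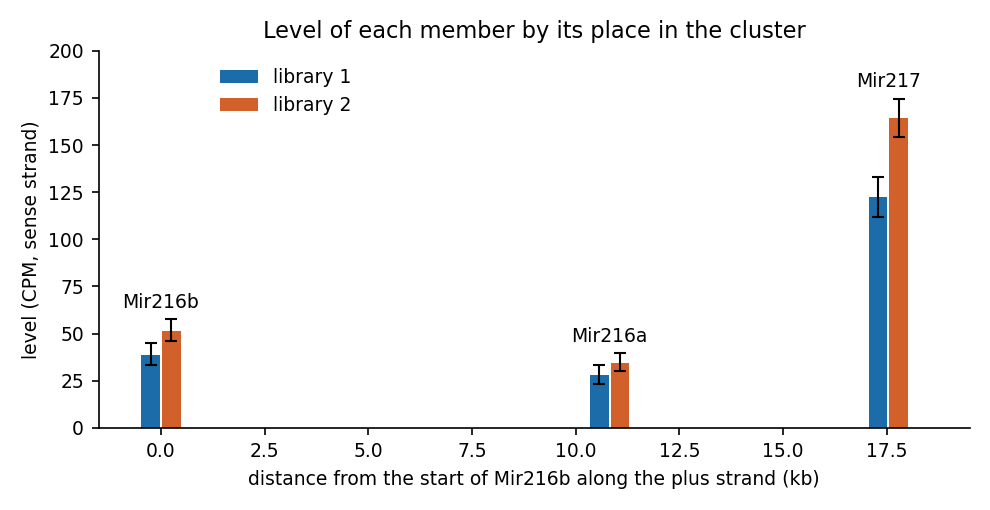
Level in CPM (bars from 0, with 95% Poisson counting intervals) of Mir216b, Mir216a and Mir217 in library 1 (blue) and library 2 (orange), placed by distance in kb from the start of Mir216b, with the bars of both libraries side by side. Mir217, at the downstream end, is the highest in both libraries, with 122 and 164 CPM.

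The order Mir217, Mir216b, Mir216a was the same in both libraries. Mir217 had 4.38 times the counts of Mir216a in library 1 (95% exact interval 3.58 to 5.40) and 4.76 times in library 2 (4.10 to 5.56). Against Mir216b the factor was 3.15 (2.64 to 3.78) and 3.19 (2.80 to 3.63). The precursors have 108 bases for Mir217, 86 for Mir216b and 72 for Mir216a. Per base of precursor, Mir217 came to 2.92 and 3.18 times the level of Mir216a and 2.51 and 2.54 times that of Mir216b. The Mir216 genes were less clearly apart. Mir216b had 1.39 times the counts of Mir216a in library 1 (1.09 to 1.78) and 1.495 times in library 2 (1.25 to 1.79), but per base 1.16 (0.913 to 1.49) and 1.25 (1.05 to 1.499). On that scale the interval of library 1 includes 1. The mature arms of both genes are 22 bases long, however, and their counts need not follow precursor length. The per-base values are therefore given as arithmetic only.

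The make-up of the cluster was nearly the same in both pools. Mir217 held 64.7% of the 799 cluster counts of library 1 (95% Wilson interval 61.3 to 67.9) and 65.6% of the 1510 of library 2 (63.2 to 68.0). Mir216b held 20.5% (17.9 to 23.5) and 20.6% (18.6 to 22.7), and Mir216a 14.8% (12.5 to 17.4) and 13.8% (12.1 to 15.6). For each member the shares of the 2 libraries lay inside each other's interval. These shares do not depend on the library size.

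As a whole, the cluster made up more of library 2 than of library 1. The members summed to 189 CPM in the first library and 250.0 CPM in the second, a ratio of 1.32 (95% exact counting interval 1.21 to 1.44). The ratio of library 2 to library 1 was 1.34 for Mir217 (1.21 to 1.495), 1.33 for Mir216b (1.10 to 1.61) and 1.23 for Mir216a (0.980 to 1.56). The last interval includes 1, so the ratio of Mir216a was within counting error. Variation between pools was not measured, so none of these intervals tells whether such pools differ. In tissue RNA, more cells with a miRNA and more of it per cell cannot be told apart.

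All 3 members were at least 1.2-fold higher in library 2, a side on which 12.7% of the 363 detected genes lay. As the difference between the libraries helped to choose the members, nothing is read from this count. On the other side, 25.9% of detected genes were at least 1.2-fold higher in library 1. None of the members reached 1.5-fold, which 0.826% of detected genes did in library 2 and 12.4% in library 1. Over the members the log2 ratio had a median of 0.41, and over all detected genes of -0.03. Ordered from the highest ratio in favour of library 2, Mir217 ranked 14 of 363, Mir216b 16 and Mir216a 39. Nothing is read from these ranks or medians either, since the ratio helped to choose the members. With all reads of each table as the library size, the log2 ratio of Mir216a was 0.25, under 1.2-fold, and 2 of the 3 members were past that fold, beside 32 detected genes in all on the side of library 2 and 108 on that of library 1 (46 and 94 with miRNA-gene counts). With 10 CPM added to each level it was 0.23, also under 1.2-fold.

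**Figure D2:**
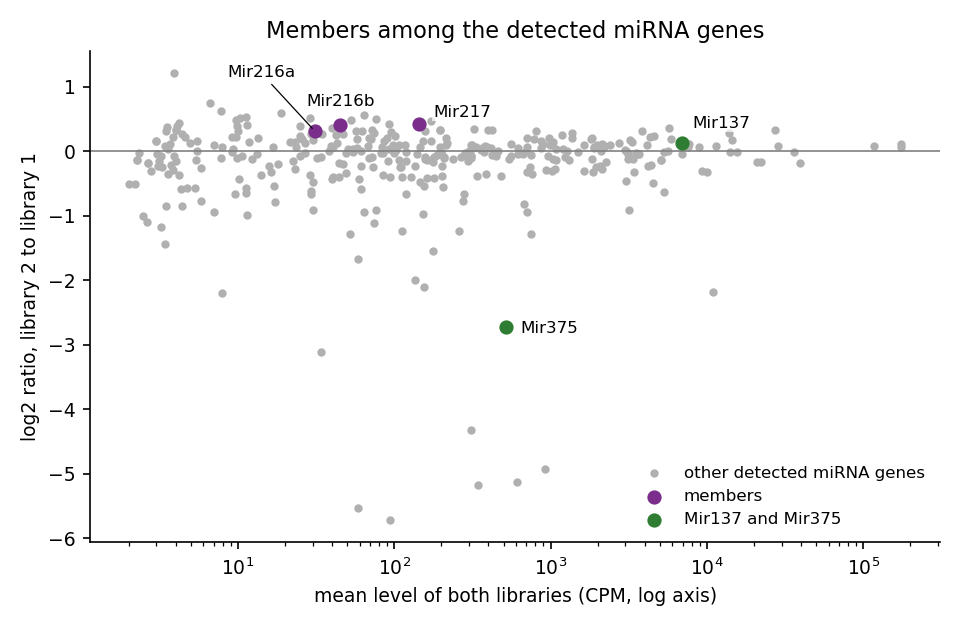
log2 ratio of library 2 to library 1 against mean level in CPM (log axis) for the 363 detected miRNA genes (1 point per gene), with the members in purple and Mir137 and Mir375 in green. The members lie between 0.30 and 0.42 on the ratio axis, above Mir137 at 0.13 and far above Mir375 at -2.72.

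The genes set beside the cluster were Mir137, a neuronal miRNA gene that acts in neuron maturation, and Mir375, which controls insulin secretion in pancreatic islets and is also made in gut and other endocrine cells. In libraries 1 and 2 Mir137 stood at 6615 and 7220 CPM, a ratio of library 2 to library 1 of 1.09 (1.08 to 1.11). Mir375 stood at 896 and 136 CPM, a ratio of 0.151 (0.140 to 0.163), or 6.61-fold higher in library 1 (6.13 to 7.13). The members and Mir137 were higher in library 2, as were 161 of the 363 detected genes, while Mir375 was lower. Mir137 lay within 1.2-fold and below the interval of Mir217 (1.21 to 1.495). No likeness of the members to Mir137 is read from the shared side.

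Counted against Mir137 within each library, Mir217 came to 1.85% of its counts in library 1 (1.69 to 2.02) and 2.27% in library 2 (2.13 to 2.42). These intervals did not overlap. For Mir216b the values were 0.586% (0.4998 to 0.684) and 0.713% (0.636 to 0.797), and for Mir216a 0.422% (0.349 to 0.505) and 0.477% (0.414 to 0.547), with overlapping intervals in both. Counted against Mir375, Mir217 came to 13.6% of its counts in library 1 (12.4 to 15.0) and 121% in library 2 (110.2 to 132.9). Divided by precursor length, that is 0.0809 times the level of Mir375 in library 1 and 0.717 times in library 2. Counts of mature miRNAs need not follow precursor length, so no order is read from this scale.

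Most genes of the pancreas, endocrine and gut list, Mir375 among them, were higher in library 1. Of 9 genes 8 were detected, with 5 at least 1.2-fold higher in library 1, 1 at least 1.2-fold higher in library 2 and 2 between, and a median log2 ratio of -0.77. Mir148a, abundant in pancreas and liver, was at 185 and 138 CPM in libraries 1 and 2, a log2 ratio of -0.43. The genes of gut, liver and kidney lay lower still. Mir192 was at 217 and 54.1 CPM, Mir194-2 at 101 and 47.0 CPM, and Mir215 at 60.5 and 6.95 CPM. Mir194-2 shares a mature miRNA with Mir194-1, and reads that fit both were counted for neither.

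The Mir7 genes, which are made in both islets and neurosecretory neurons, were the ones in that list not higher in library 1. Mir7-2 was at 174 and 218 CPM, a ratio of 1.25 (1.14 to 1.37) and so close to those of the members. Mir7-1 had a ratio of 1.07 (0.982 to 1.17) and Mir7b of 1.03 (0.984 to 1.09), with intervals that include 1. Mir7-1 and Mir7-2 encode the same 5p miRNA, and reads that fit both were counted for neither, so their levels are uncertain.

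In the neuron-enriched list, 12 of 15 genes were detected and 11 of these lay within 1.2-fold, with a median log2 ratio of 0.07. The remaining one was Mir132, a miRNA gene induced by neuronal activity, at 724 and 893 CPM, a ratio of 1.23 (1.18 to 1.29), close to that of Mir216a. Its neighbour Mir212 had a ratio of 1.09 (0.896 to 1.33). The 3 copies of Mir124a, the best-known neuronal miRNA, were the undetected ones, with 2 to 8 counts each in library 1 and 5 to 17 in library 2. They encode the same mature miRNA, and reads that fit several copies were counted for none, so they are no check of the tissue. Mir137 and Mir128-1, the other neuronal markers, were present at 6917 ± 428 and 1275 ± 3.71 CPM (SD, n = 2). Mir128-1 shares a mature miRNA with Mir128-2, as do the Mir129, Mir138 and Mir218 genes within each pair, so their levels carry the same limit, while that of Mir137 does not.

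**Figure D3:**
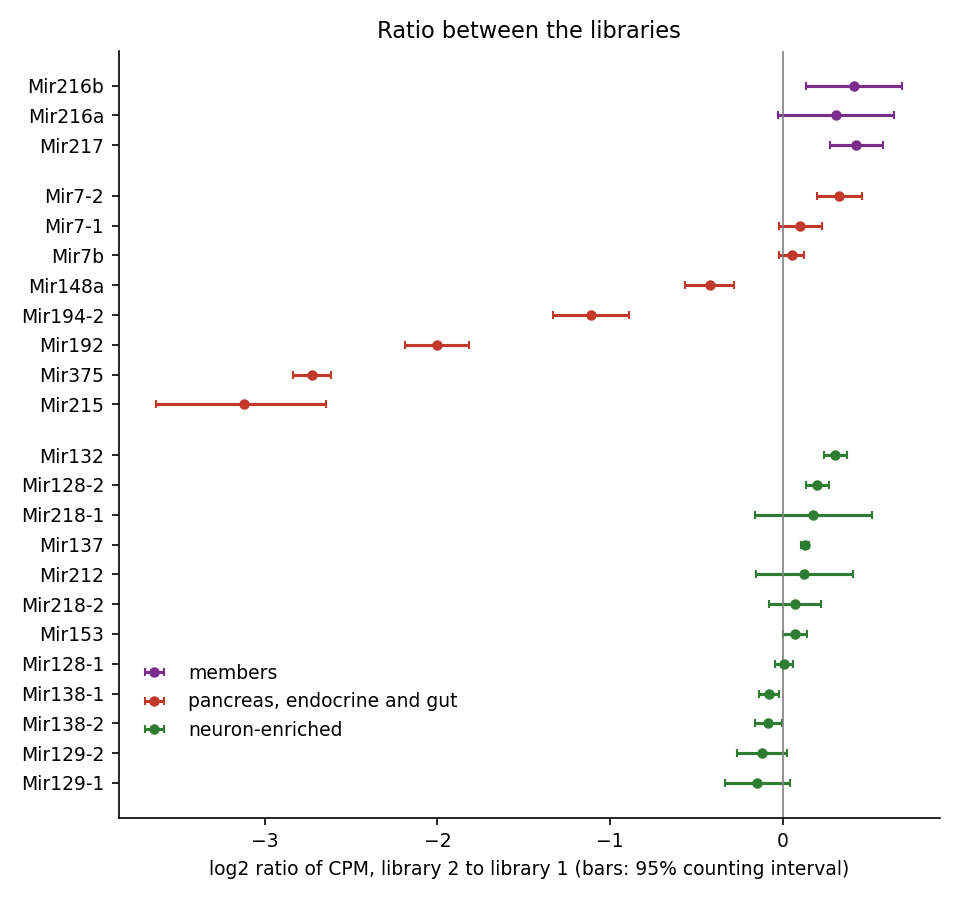
log2 ratio of CPM of library 2 to library 1 (points, with 95% exact counting intervals) for the members (purple) and for the detected genes of the pancreas, endocrine and gut list (red) and of the neuron-enriched list (green). The members lie to the right of 0, where Mir7-2 and Mir132 also lie, while Mir148a, Mir194-2, Mir192, Mir375 and Mir215 lie to the left, down to -3.12 for Mir215.

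The summed markers of other tissues were lower in library 2, on the side opposite to the members. The epithelial markers, 7 of 7 detected, summed to 5458 CPM in library 1 against 631 CPM in library 2. The mesenchyme and smooth muscle markers, 4 of 4 detected, summed to 19287 and 4459 CPM, the pancreatic and endocrine markers Mir375 and Mir148a, both detected, to 1081 and 274 CPM, the gut markers, 3 of 4 detected, to 390.0 and 109.6 CPM, and the leukocyte markers, 2 of 2 analysed, to 275 and 170.4 CPM. The endothelial gene Mir126a was at 22011 and 19666 CPM, the erythroid markers, 3 of 3 detected, at 202 and 183 CPM, and the liver gene Mir122 at 66.0 and 56.3 CPM, the last within counting error. The leukocyte and erythroid sums mix unlike genes. Mir223 had a ratio of library 2 to library 1 of 0.510, but Mir150 one of 0.932 (0.801 to 1.09). Mir144 was at 0.653, but Mir451a at 0.969 (0.872 to 1.08) and Mir486 at 0.894 (0.684 to 1.17). The intervals of Mir150, Mir451a and Mir486 include 1. The leukocyte gene Mir142 was not analysed here. None of these marker genes was at 0 in both libraries. With all of them left out of the library size, the log2 ratios of library 2 to library 1 were 0.39 for Mir217, 0.37 for Mir216b and 0.27 for Mir216a, against 0.42, 0.41 and 0.30 with them. This rescaling shifts the log2 ratio of every gene by the same amount, so it says nothing about the members in particular. Whether these tissues have a part in the result was not tested.

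The genes most like each member were taken as the 4 with the smallest distance over the log2 CPM of both libraries. With 2 libraries, likeness means a similar level and ratio and no more. For Mir217 they were Mir135a-1, at 141 and 175 CPM, Mir346, which lies in the glutamate receptor gene Grid1, at 144 and 161 CPM, Mir218-2 of the axon guidance gene Slit3 at 143 and 150.2 CPM, and the erythroid gene Mir451a at 143 and 138 CPM. The ratio of Mir217 was above that of each of them, the nearest being Mir135a-1 with a log2 ratio of 0.31. As that ratio helped to choose the members, nothing is read from this. For Mir216b they were Mir6540, Mir326, Mir212 and Mir702, between 0.13 and 0.24 log2 units away. For Mir216a they were Mir218-1 of Slit2, Mir670, Mir103-2 and Mir1264, between 0.11 and 0.24 log2 units away. Of these only Mir1264, with a log2 ratio of 0.51, was above Mir216a at 0.30. Mir218-1, Mir218-2, Mir103-2 and Mir135a-1 each have a second gene copy with the same 5p or 3p miRNA, so their counts are uncertain.

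The agreement among the members was set beside that in other miRNA clusters. When miRNA genes of the tables on the same strand were joined at gaps of up to 50 kb, 16 clusters had at least 3 detected genes, and 7 of these had exactly 3. The log2 ratios of the members spanned 0.12. In the other clusters of 3 detected genes the span went from 0.15, for Mir23a to Mir24-2, to 0.61, for Mir429 to Mir200b, so the members had the smallest span of these 7 and of all 16. As the members' values were known, this is a description. Larger clusters have more genes to spread, and the counting interval of each member is wider than the span itself. The median ratio of a cluster was higher in only 1 case, Mir302b to Mir302d, with a log2 ratio of 0.44.

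In level, the highest mean CPM among the members was 4.59 times the lowest. The median of this fold was 22.2 over the 7 clusters with exactly 3 detected genes and 101 over all 16. It was smaller in 2 clusters, Mir182 to Mir183 with 3.39 times and Mir344e to Mir344c with 1.25 times. Several of the other clusters hold a gene whose mature miRNA is also encoded elsewhere, such as Mir125b-1, Mir125b-2, Mir24-2 and Mir92-1. Reads that fit several places were counted for no gene, so the level spread of those clusters is uncertain.

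**Figure D4:**
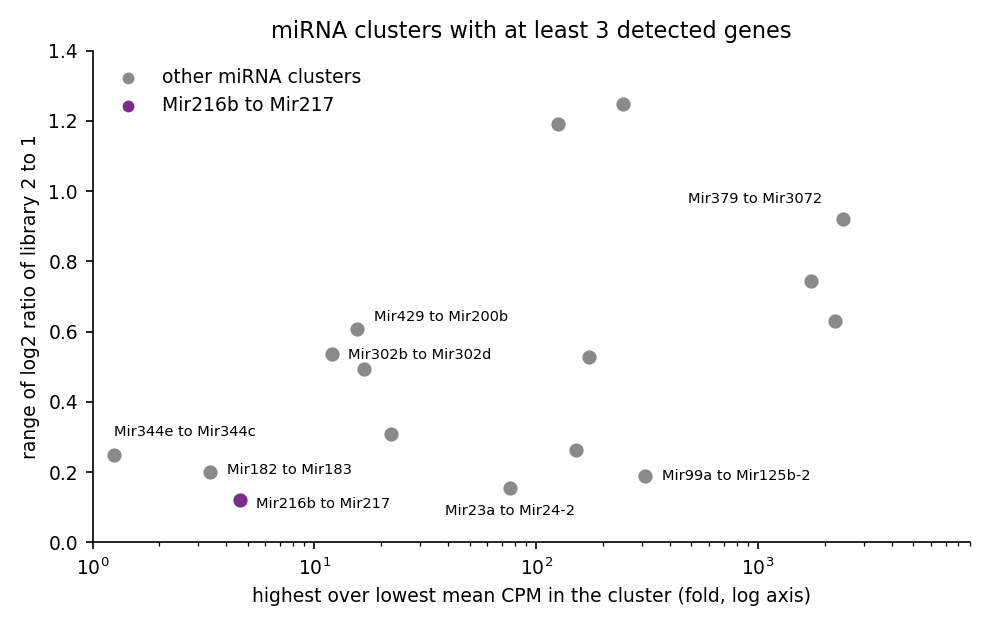
Range of the log2 ratio of library 2 to library 1 among the detected genes of a cluster, against the highest over the lowest mean CPM in it (fold, log axis), for the 16 miRNA clusters with at least 3 detected genes (1 point per cluster). The cluster of Mir216b, Mir216a and Mir217 (purple) has the smallest range, 0.12, and a level spread of 4.59-fold.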

How the data were processed

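The deposited tables hold raw counts, as whole numbers per miRNA gene, and the README texts deposited with the samples name build mm10 and GENCODE M4. Aligner, counter and trimming were not given in the sources used here. Counts from the third column, the strand with the larger gene total, were used as sense counts. Entries that name no gene, which in the unstranded column hold 45.7% and 47.7% of the 7925935 and 11738914 reads, stayed out of library sizes, as did the 77636 and 98084 antisense counts in genes. Symbols came from GENCODE M21, which matched 1894 of 1973 identifiers.

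CPM, exact (Clopper-Pearson), Poisson and Wilson 95% intervals were computed with scipy 1.17.1, numpy 2.4.6 and pandas 2.3.3 under Python 3.11.15 (plots: matplotlib 3.10.9). The ratio and its interval were tested on simulated independent Poisson counts, the assumption the interval itself makes. Copying by PCR and variation between pools were not simulated. Ratios have counting error only. Scaling by edgeR 4.0.16 (TMM) and DESeq2 1.42.0 in R 4.3.3, all reads, unstranded counts, pseudocounts, other filters and leaving out a library were alternatives.

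Members and lists were chosen with earlier results of these data known. Named genes are the members, Mir137, Mir375, the listed and marker genes, and the 4 genes nearest to each member. The gap that joins genes into clusters, and the clusters named, were chosen after their values were seen. With 1 group of 2 libraries, no test between groups was made.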

Additional observations from a re-analysis of the deposited data

How the results depend on the processing

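The log2 ratio of library 2 to library 1 kept its sign for each member, their sum, Mir137 and Mir375 under all 7 alternatives, from 0.37 to 0.46 for Mir217, 0.33 to 0.44 for Mir216b and 0.23 to 0.34 for Mir216a, and that of Mir137 went from 0.074 to 0.16. One of the 7, the library size without markers, was chosen after seeing the data. The pseudocounts could not change a sign, since the same amount was added to both libraries. Unstranded counts left the counts of these genes unchanged and altered only the library size. Levels moved by more than the SD only with all reads as library size, to 74.8 per 1000000 reads for Mir217, 23.6 for Mir216b, 16.3 for Mir216a and 114.7 for the sum. Leaving out either of 2 libraries leaves the value of the other, so it is no check of the levels. Per base of precursor the mean ratio was 3.05 for Mir217 to Mir216a, 2.52 for Mir217 to Mir216b and 1.21 for Mir216b to Mir216a. The precursors differ in length, which counts of mature miRNAs need not follow. Counts of genes past a fold depended on the filter, which also sets how many genes are tested. With at least 1 count, which tests 573 genes, 188 and 134 were 1.2-fold higher in library 1 and library 2, and 106 and 57 were 1.5-fold higher. With at least 100 counts, which tests 270 genes, 63 and 29 were 1.2-fold higher in library 1 and library 2. At 1.5-fold these were 29 and 0. By TMM and by DESeq2 size factors 5 genes were 1.5-fold higher in library 2, against 3. No paired analysis was possible because there is 1 group. A ratio without 1 library cannot be formed. Depth limits Mir216a most, whose ratio rests on 118 and 208 counts.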
